A study of Mus musculus with 6 samples.

Results

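The proteasome genes were examined in the livers of mice that lack Elovl6 in the liver and of their controls. They were taken as the genes on the array whose RefSeq symbol starts with Psma, Psmb, Psmc, Psmd or Psme followed by a number, pseudogenes left out, which gave 45 of 22911 named genes. For 43 of them the symbol stands for a subunit, an activator or a cap assembly chaperone. The other two, Psmc3ip and Psme3ip1, encode interacting proteins rather than subunits and are given apart. The study profiled the livers of 6 male mice, 3 with a liver-specific Elovl6 knockout (LKO) and 3 controls, whose sample titles carry the name Flox. Elovl6 encodes an enzyme of fatty acid elongation, with palmitate as a main substrate. Controls and LKO alike received high-sucrose food over 14 days, and after 4 hours without food their livers were taken and frozen. The transgene that drives the deletion and the age of the mice are not given in the sources used here. An Agilent expression array with 1 colour was used for each liver, so n = 3 mice per group throughout. Elovl6 was 91.0-fold lower in LKO (limma adjusted p = 0.00279), with processed signals of 6364 to 12349 among controls and 62.3 to 99.6 in LKO. All 6 arrays lay on 1 slide from 1 scan, and between 52.1% and 56.6% of the 59305 spots of an array were well above background, with no spot saturated. The array barcode holds a number that was 2 for LKO 2 and LKO 3 and 1 for the other 4 arrays. That number is called slide column here, though whether it marks a column of the slide was not checked. The hepatocyte markers Alb, Apoa1, Ttr, Apob and Ahsg were well above background in every mouse. Precision is limited by this number of arrays.

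The proteasome is the protease that degrades ubiquitin-tagged proteins in the cytosol and the nucleus. Its barrel-shaped core particle is built from outer rings of alpha subunits (Psma genes), which gate the entrance, and inner rings of beta subunits (Psmb genes), which hold the proteolytic sites. A cap on the end of the core recognises tagged proteins, removes the ubiquitin and unfolds the chain. The cap has a base with a ring of ATPases (Psmc genes) and a lid of further subunits (Psmd genes). In immune cells, and in other cells exposed to interferon gamma, the catalytic beta subunits Psmb6, Psmb7 and Psmb5 are replaced by the immune subunits Psmb9, Psmb10 and Psmb8, respectively, which alters the peptides that are cut for display on MHC class I. In liver, as in other tissues, it clears short-lived and misfolded proteins, including proteins returned from the endoplasmic reticulum.

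The promoter windows of the catalytic subunits are shown because these genes allow the direct comparison of immune with constitutive subunits. RefSeq windows of assembly GRCm38.p6, each of 300 bases from 250 before to 50 after the gene start, were found for 36 of the 43 genes. Psma8, Psmb1, Psmb2, Psmb7, Psmc3, Psmd3 and Psmd7 were not matched. The windows lie at chr17:34197945-34198244 (plus strand) for Psmb8, chr17:34187281-34187580 (minus strand) for Psmb9, chr8:105938343-105938642 (minus strand) for Psmb10, chr14:54617946-54618245 (minus strand) for Psmb5 and chr11:70525107-70525406 (plus strand) for Psmb6. Capitals mark the letters of the motifs described after the sequences.
Psmb8: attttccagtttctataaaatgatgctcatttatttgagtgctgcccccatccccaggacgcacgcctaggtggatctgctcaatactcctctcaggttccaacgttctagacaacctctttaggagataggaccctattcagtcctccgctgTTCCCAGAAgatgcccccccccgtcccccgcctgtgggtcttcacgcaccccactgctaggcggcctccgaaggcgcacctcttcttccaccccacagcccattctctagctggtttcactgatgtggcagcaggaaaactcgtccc
Psmb9: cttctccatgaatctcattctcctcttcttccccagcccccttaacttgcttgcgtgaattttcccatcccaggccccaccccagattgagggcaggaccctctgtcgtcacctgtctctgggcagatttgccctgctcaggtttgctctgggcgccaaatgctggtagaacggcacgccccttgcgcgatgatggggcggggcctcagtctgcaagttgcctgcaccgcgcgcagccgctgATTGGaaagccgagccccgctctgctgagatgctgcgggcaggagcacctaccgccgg
Psmb10: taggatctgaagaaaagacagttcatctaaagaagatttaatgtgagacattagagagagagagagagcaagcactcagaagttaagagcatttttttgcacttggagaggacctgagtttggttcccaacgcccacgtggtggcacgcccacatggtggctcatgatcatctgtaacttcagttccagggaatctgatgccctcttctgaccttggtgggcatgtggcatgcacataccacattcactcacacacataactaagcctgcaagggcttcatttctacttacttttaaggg
Psmb5: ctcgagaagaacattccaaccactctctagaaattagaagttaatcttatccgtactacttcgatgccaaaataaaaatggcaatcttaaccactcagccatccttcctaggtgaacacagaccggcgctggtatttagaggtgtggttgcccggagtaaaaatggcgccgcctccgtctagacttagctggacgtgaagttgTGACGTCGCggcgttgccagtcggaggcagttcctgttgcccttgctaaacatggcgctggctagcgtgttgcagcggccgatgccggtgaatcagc
Psmb6: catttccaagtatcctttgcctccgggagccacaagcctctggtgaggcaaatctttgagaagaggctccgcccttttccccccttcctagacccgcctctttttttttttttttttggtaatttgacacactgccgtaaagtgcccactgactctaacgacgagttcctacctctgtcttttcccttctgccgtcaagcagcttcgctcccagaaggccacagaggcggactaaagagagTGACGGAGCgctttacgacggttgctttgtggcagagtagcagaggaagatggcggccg

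The following motifs were searched on both strands. TTCNNNGAA is the gamma interferon activation site bound by STAT factors, the element of IRF factors is GAAA, any 2 bases and GAAA again, TGACNNNGC is the antioxidant response element to which NRF1 and NRF2 bind with small MAF proteins, and CCAAT is bound by NF-Y. The Psmb8 window held TTCCCAGAA at bases 154 to 162 counted from the 5′ end of the window. The windows of Psmb5 and Psmb6 held the antioxidant response element as TGACGTCGC at bases 204 to 212 and as TGACGGAGC at bases 242 to 250. The Psmb9 window held CCAAT on the other strand at bases 243 to 247, and none of these letters was in the Psmb10 window. The Psmb9 window shares 275 bases with that of Tap1, the peptide transporter gene that starts on the opposite strand. A gene was counted if any of its windows held the letters. Over the 36 genes, the antioxidant response element was in 16.7% (against 14% of 27025 genes with a window) and the gamma interferon activation site in 5.56% (against 9.55%). The IRF element was in 11.1% (against 3.99%) and CCAAT in 38.9% (against 41.1%). These matches describe letters and not bound sites.

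No proteasome gene passed the test between LKO and control. Of the 43 genes, 42 were tested, each well above background in all 6 mice, so that none entered through 1 group alone. Of these, 0 passed an adjusted p of 0.05 (limma, Benjamini-Hochberg over 14171 genes), where 0.0141% of all genes tested did. At an unadjusted p under 0.05 there were 3 of 42 (7.14%), against 11.2% of all genes tested. They were Psmb10, higher in LKO (5.56% of all genes tested were), and Psmd11 and Psmd7, lower in LKO (5.6%). The 2 groups of mice did not overlap for 7 of 42 genes (16.7%), against 17.3% of all genes tested. Of these, 1 was higher in LKO (8.11% of all genes tested were) and 6 were lower (9.21%). Taken over both directions, the shares of 7.14% and 16.7% lay near or below the background. By direction, the share without overlap lay above the background for lower values and below it for higher values.

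The differences were also narrowly bounded. For 39 of 42 genes (92.9%) the 95% interval of the change lay within 1.5-fold in both directions, against 74.3% of all genes tested. The exceptions were Psmd11, Psme3 and Psma8. The share within 1.5-fold was not taken for genes at a like signal, whose median spread was smaller than that of all genes tested. Among core and cap subunits the standard deviation between mice of a group had a median of 0.09 on the log2 scale, against 0.11 for 1641 genes at a like signal and 0.15 for all genes tested. All log2 values given here were scaled by subtracting, on the log2 scale, each array's 75th percentile, so they compare mice for 1 probe and not 1 gene with another.

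**Figure D1:**
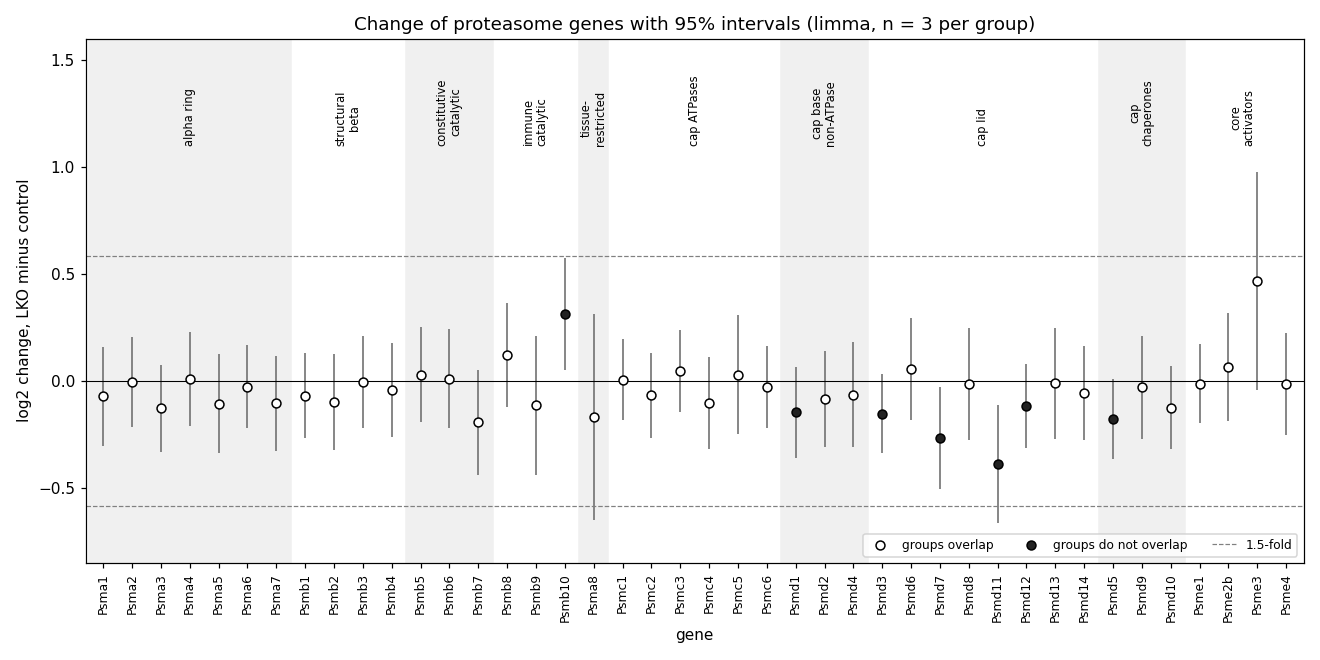
Log2 change of the 42 tested proteasome genes (vertical axis, LKO minus control) by role, with 95% intervals from limma and n = 3 per group. Filled points mark the 7 genes whose groups do not overlap, dashed lines mark 1.5-fold, and most intervals lie between those lines.

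The core particle differed little between the groups. Its 14 constitutive genes had a median log2 change of -0.06, between -0.19 and 0.03, beside a median of 0.00 over all genes tested, and 11 of 14 had lower values in LKO. None had an unadjusted p under 0.05 or groups that did not overlap. All 14 intervals lay within 1.5-fold. Without control 1 the median was -0.01, and without LKO 1 it was -0.01. With a slide column term it was -0.12.

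In the alpha ring, 6 of 7 genes had lower values. Psma3, an alpha subunit, was at 5.88, 5.77 and 5.80 (log2 value) in control 1, 2 and 3 and at 5.62, 5.78 and 5.66 in LKO 1, 2 and 3. LKO 2 lay inside the control range, and the log2 change was -0.13 ± 0.09 (SE, limma adjusted p = 0.632). Psma7 and Psma5, also ring subunits, had log2 changes of -0.10 ± 0.09 and -0.11 ± 0.10 (SE), or -0.048 and -0.028 without control 1. Psma4 had 4 probes, which gave log2 changes between -0.12 and 0.01, so its direction depended on the probe.

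The structural beta subunits Psmb1, Psmb2, Psmb3 and Psmb4, which complete the inner rings and carry no active site, had log2 changes between -0.10 and -0.01. Psmb2 was at 1.80, 1.69 and 1.62 among controls and at 1.51, 1.71 and 1.59 in LKO (log2 values), with a change of -0.10 ± 0.09 (SE), or -0.049 without control 1. Its second probe gave -0.12. The groups overlapped for all 4 genes.

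The 3 constitutive catalytic subunits did not share a direction. Psmb5, which carries the chymotrypsin-like site, had log2 values of 4.16, 3.98 and 3.94 among controls and 4.01, 4.11 and 4.06 in LKO. All 3 LKO mice lay within the control range, with a log2 change of 0.03 ± 0.09 (SE). Psmb6, which carries the caspase-like site, had log2 values of 6.41, 6.15 and 6.27 among controls and 6.21, 6.33 and 6.32 in LKO. Its log2 change was 0.01 ± 0.10 (SE), and the interval ran from -0.22 to 0.24. Median scaling, which moved the change of the median gene by -0.05, put both just below 0. Psmb7, which carries the trypsin-like site, had log2 values of 3.79, 3.49 and 3.67 among controls and 3.51, 3.46 and 3.39 in LKO. LKO 1 lay just above control 2, and the log2 change was -0.19 ± 0.10 (SE, limma adjusted p = 0.549), or -0.12 without control 1.

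The immune subunits differed in direction among themselves. Psmb10 had higher values in all 3 LKO mice, Psmb8 slightly higher ones on average and Psmb9 slightly lower ones, and none of the 3 passed. Their median log2 change was 0.12, the value of Psmb8. It was 0.07 under median scaling and -0.01 in a fit with a slide column term.

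Psmb10, the immune counterpart of Psmb7, had log2 values of 4.55, 4.39 and 4.40 among controls and 4.58, 4.82 and 4.88 in LKO. The groups did not overlap, but LKO 1 lay only just above control 1. The log2 change was 0.31 ± 0.11 (SE), a level 1.24-fold higher in LKO, with a 95% interval from 0.05 to 0.57 and limma adjusted p = 0.379. Once slide column entered the fit, the log2 change was 0.13. That value compares LKO 1 alone with the 3 controls, since the other slide column holds no control, so slide column and the values of LKO 2 and LKO 3 cannot be told apart.

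Psmb8, the counterpart of Psmb5, had log2 values of 2.40, 2.36 and 2.22 among controls and 2.32, 2.58 and 2.45 in LKO. LKO 1 lay inside the control range, and the log2 change was 0.12 ± 0.10 (SE, limma adjusted p = 0.706), or -0.012 with a slide column term. Psmb9, the counterpart of Psmb6, had log2 values of 3.07, 2.79 and 2.69 among controls and 2.64, 2.93 and 2.64 in LKO. LKO 2 lay inside the control range, and the log2 change was -0.11 ± 0.14 (SE, limma adjusted p = 0.802). Without control 1 it was -0.0045, so nearly the whole value rested on that mouse. The 95% intervals of Psmb8 (-0.12 to 0.37) and Psmb9 (-0.44 to 0.21) both include 0 and lie within 1.5-fold.

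**Figure D2:**
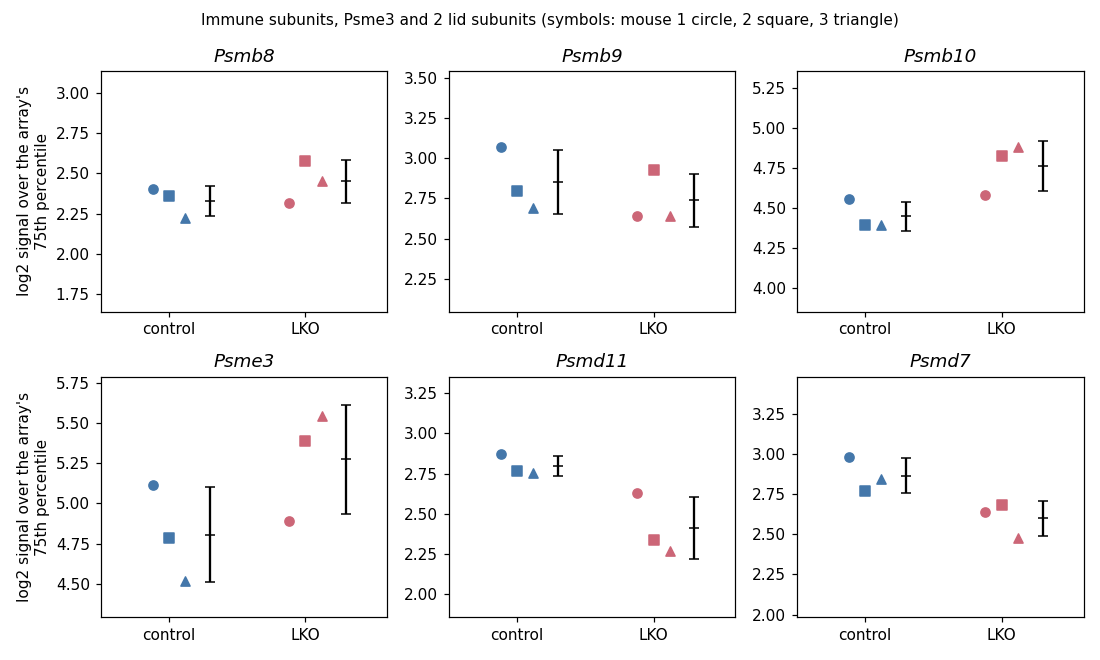
Log2 signal over the array's 75th percentile (vertical axes, all of the same span) of Psmb8, Psmb9, Psmb10, Psme3, Psmd11 and Psmd7 in the 3 controls and 3 LKO mice. Points are mice, and bars are the mean and SD. Groups are apart for Psmb10, Psmd11 and Psmd7 and overlap for the other genes shown.

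The change of each immune subunit was set against that of its constitutive partner within the same array. Psmb10 minus Psmb7 was 0.76, 0.91 and 0.73 among controls and 1.07, 1.36 and 1.49 in LKO (log2 differences between probes, with no meaning as a ratio of transcripts). All 3 LKO mice lay above all 3 controls, and the difference was 0.51 higher in LKO (exact two-sided permutation p = 0.1, the smallest that 3 mice against 3 allow, and 0.3 adjusted over 3 pairs). Psmb8 minus Psmb5 was 0.09 higher in LKO (exact permutation p = 0.2, adjusted 0.3) and Psmb9 minus Psmb6 moved by -0.13 (exact permutation p = 0.3, adjusted 0.3). In both of these pairs the groups overlapped. With a slide column term in the fit the differences were 0.27 for Psmb10 minus Psmb7 and 0.0084 for Psmb8 minus Psmb5. No pair passed, and no pair could have with this number of mice.

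**Figure D3:**
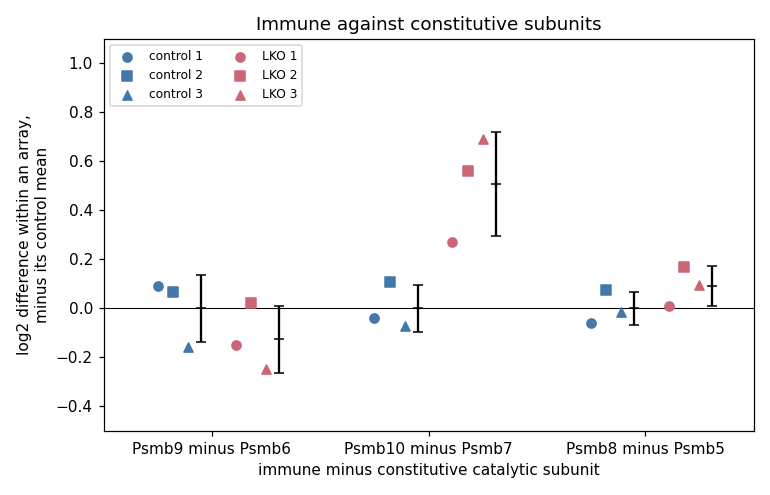
Log2 difference between an immune subunit and its constitutive partner within an array, minus the mean of the 3 controls (vertical axis), for 3 pairs. Points are mice, and bars are the mean and SD of 3 mice. Only for Psmb10 minus Psmb7 do the LKO mice lie above all controls.

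The cap had a median log2 change of -0.07 over 17 genes, and 13 of 17 had lower values in LKO. The median was -0.09 for the 8 lid genes and -0.01 for the 6 genes of the ATPase ring, and the difference between them was not tested. Groups did not overlap for 5 of 17 cap genes, all of them lower in LKO, where 9.21% of all genes tested were lower without overlap. None passed over all genes. Without control 1 the cap median was -0.02, and without LKO 1 it was -0.04. With a slide column term it was -0.12.

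In the lid, 7 of 8 genes had lower values. Psmd11, a lid subunit that braces the cap against the core, had log2 values of 2.87, 2.76 and 2.76 among controls and 2.63, 2.34 and 2.27 in LKO. LKO 2 and LKO 3 were the lowest, and all LKO mice lay below the controls. The log2 change was -0.39 ± 0.12 (SE), 1.31-fold lower, with a 95% interval from -0.66 to -0.11 and limma adjusted p = 0.321. The fit with a slide column term gave -0.17.

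Psmd7, the lid partner of the deubiquitinase subunit Psmd14, had log2 values of 2.98, 2.77 and 2.84 among controls and 2.64, 2.68 and 2.48 in LKO. The groups did not overlap, and the log2 change was -0.27 ± 0.10 (SE), 1.20-fold lower, with limma adjusted p = 0.409. Psmd3, another lid subunit, had log2 values of 5.33, 5.27 and 5.21 among controls and 5.14, 5.10 and 5.12 in LKO, a log2 change of -0.15 ± 0.08 (SE, limma adjusted p = 0.524). Its second probe gave -0.12 with overlapping groups. Psmd12 was lower in all 3 LKO mice by a log2 change of -0.12 ± 0.08 (SE). Psmd14 itself, which cuts ubiquitin from the substrate, had a log2 change of -0.06 ± 0.09 (SE) with 1 probe and -0.20 with the other. Psmd6 had probes of opposite direction, with log2 changes from -0.15 to 0.05.

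In the base, 3 of 3 scaffold and receptor genes and 3 of 6 ATPase genes had lower values. Psmd1, the largest scaffold of the base, had log2 values of 4.68, 4.51 and 4.46 among controls and 4.39, 4.41 and 4.42 in LKO, without overlap, and a log2 change of -0.15 ± 0.09 (SE), or -0.081 without control 1. The groups overlapped for its other 2 probes, which gave -0.09 and -0.12. Psmd2, its companion scaffold, and the ubiquitin receptor Psmd4 had log2 changes of -0.09 ± 0.09 and -0.07 ± 0.10 (SE), or -0.026 and 0.024 without control 1. Among the ATPases, which pull the chain into the core, Psmc4 had -0.10 ± 0.09, Psmc2 -0.07 ± 0.08 and Psmc3 0.05 ± 0.08 (log2 changes, SE). Without control 1, Psmc4 had -0.051 and Psmc2 -0.038. For each of these 3 the groups overlapped.

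Psmd5, Psmd9 and Psmd10 encode chaperones that help to assemble the base and leave before the cap is complete. Psmd5 had processed signals of 659.7, 663.1 and 652.1 among controls and 566.4, 530.7 and 520.7 in LKO. The groups did not overlap, and the log2 change was -0.18 ± 0.08 (SE, limma adjusted p = 0.474). Psmd10, also known as gankyrin, and Psmd9 had log2 changes of -0.12 ± 0.08 and -0.03 ± 0.10 (SE).

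Among the activators, which open the core without the cap, Psme3 had the largest difference. It encodes the nuclear activator of the family and had log2 values of 5.11, 4.79 and 4.52 among controls and 4.89, 5.39 and 5.54 in LKO. LKO 1 lay inside the control range and LKO 2 and LKO 3 above it. The log2 change was 0.47 ± 0.21 (SE), 1.38-fold higher, with a 95% interval from -0.04 to 0.98 and limma adjusted p = 0.488. The fit with a slide column term gave 0.09. Psme1, a subunit of the interferon-inducible activator, had a log2 change of -0.01 ± 0.08 (SE), and its interval ran from -0.20 to 0.17. Psme2b, measured by 2 probes, had 0.07 and 0.06. It is a near-identical copy of Psme2, the partner of Psme1, so which copy was measured is uncertain, and Psme2 was not analysed here. Psme4, a large single-chain activator, had a log2 change of -0.01 ± 0.10 (SE).

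The tissue-restricted subunits were dim. Psma8, the alpha subunit of testis, had processed signals of 54.9, 89.6 and 73.9 among controls and 54.3, 66.2 and 56.6 in LKO. Its log2 change was -0.17 ± 0.20 (SE), and its second probe was well above background on 0 of 6 arrays. Psmb11, the catalytic subunit of thymus, was well above background on 2 of 6 arrays (control 3 and LKO 1) and was not tested. Of the interacting proteins, Psmc3ip, a meiotic recombination factor, had processed signals of 47.0, 45.2 and 43.2 among controls and 48.5, 68.1 and 56.7 in LKO, a log2 change of 0.46 ± 0.14 (SE, limma adjusted p = 0.334). It was 0.20 with a slide column term and 0.115 after normexp background correction. Psme3ip1 had a log2 change of -0.00 ± 0.13 (SE).

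**Figure D4:**
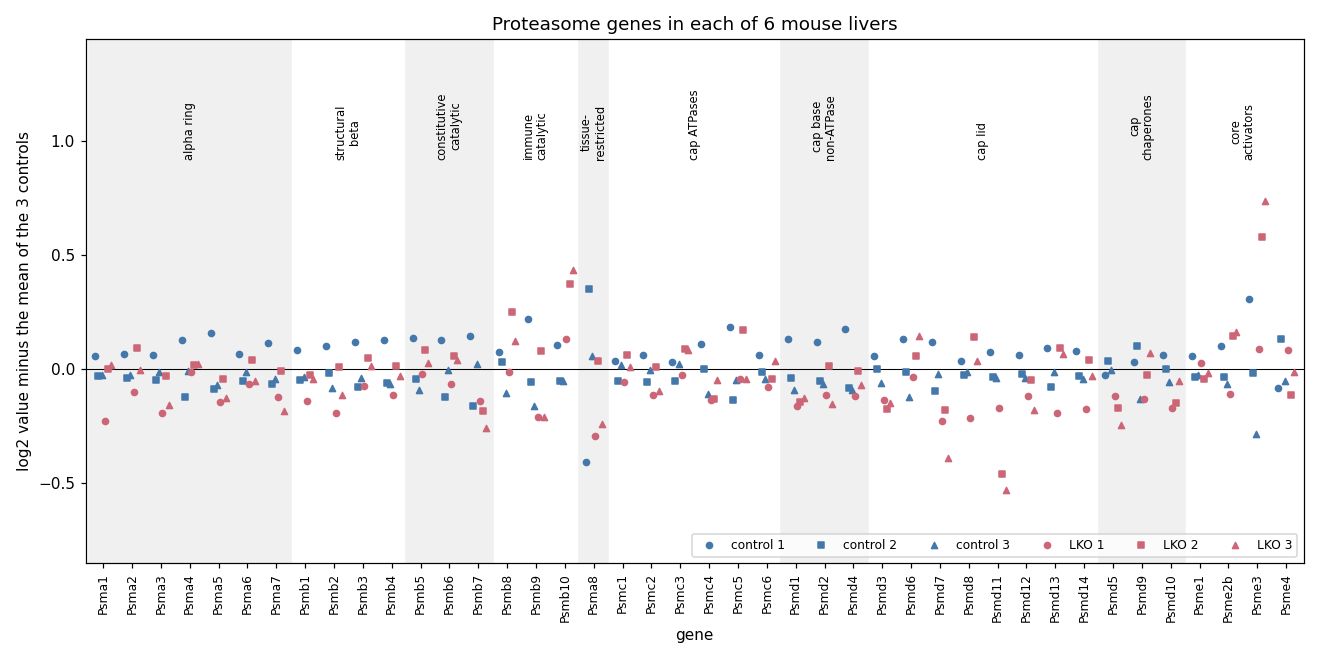
Log2 value of each of the 42 tested genes in each mouse, minus the mean of the 3 controls (vertical axis), by role. Blue marks control and red LKO, with a symbol per mouse. Control 1 (blue circles) lies at or above the other controls in every core and cap gene, and LKO 2 and LKO 3 stand out for Psmb10, Psmd11 and Psme3.

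The core and cap genes shared a pattern across single mice. Control 1 had the highest value of the 3 controls in 31 of 31 core and cap genes, where it was the highest control in 44.5% of all genes tested and in 63.8% of the 1641 genes at a like signal. Among the LKO mice, LKO 1 was the lowest in 23 of 31 (74.2%), against 35.2% of all genes tested and 45.9% of the genes at a like signal. The median deviation from a gene's mean over the 6 mice was 0.12 in control 1, -0.02 in control 2 and -0.01 in control 3. It was -0.07 in LKO 1, 0.04 in LKO 2 and -0.01 in LKO 3. The pattern depended on the processing. After quantile normalization control 1 was the highest control in 19 of 31 genes (61.3%), against 35.8% of the genes at a like signal. After normexp background correction it was the highest control in 16 of 31 (51.6%), against 35.9% of the genes at a like signal. In all, 31 of 42 proteasome genes had lower values in LKO (49.2% of all genes tested did). The count was 37 under median scaling (62.4% of all genes), 26 with the authors' value table (45.7%), 22 without control 1 (47.2%) and 24 without LKO 1 (48.9%). With a slide column term the count was 38 (50.9%). Median scaling and the authors' table move the change of nearly every gene by the same amount, -0.05 and 0.01.

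**Figure D5:**
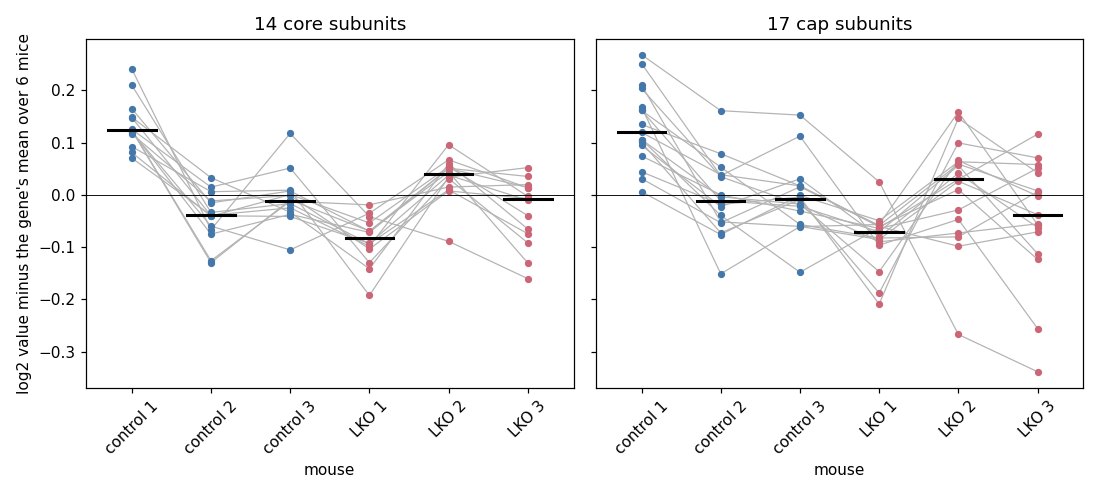
Log2 value of each core (left, 14 genes) and cap (right, 17 genes) subunit in each mouse, minus the gene's mean over the 6 mice. Grey lines join the values of 1 gene, and black bars are medians over genes. The bars of control 1 are the highest and those of LKO 1 the lowest.

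Several probes per gene gave a second measurement for part of the set. Of the 43 genes, 17 had more than 1 probe that was well above background in all 6 mice. The log2 changes of probes of the same gene differed by a median of 0.05 and by at most 0.21. For 3 of the 17, Psma4, Psmc3 and Psmd6, the probes lay on both sides of 0. Psmb8, Psmb9, Psmb10, Psmd7, Psmd11, Psmd5 and Psme3 each had 1 probe, so their values rest on it.

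Other genes of the pathway were read in the same fit, and none passed. All 5 measured chaperones of core assembly had intervals within 1.5-fold, as in Pomp, which guides beta ring assembly (log2 change -0.03 ± 0.09, SE), Psmg2 (0.12 ± 0.08) and Psmg3 (0.03 ± 0.11). Of 4 other cap components, 3 had lower values. Adrm1, a ubiquitin receptor of the cap, had log2 values of 4.01, 3.78 and 3.69 among controls and 3.62, 3.62 and 3.46 in LKO, without overlap, and a log2 change of -0.26 ± 0.11 (SE, limma adjusted p = 0.450). The cap-bound deubiquitinases Uchl5 and Usp14 had log2 changes of -0.12 ± 0.09 and -0.10 ± 0.09 (SE). Of 6 shuttle receptors, which carry tagged proteins to the cap, 5 had lower values, as in Ubqln1 (-0.22 ± 0.10) and Rad23b (-0.15 ± 0.09), and 0 of 6 passed over all genes (limma), with 1 of 6 at an unadjusted p under 0.05. With a slide column term Ubqln1 had -0.099 and Rad23b -0.069.

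The genes that control proteasome transcription or feed the pathway did not pass either. NRF1, encoded by Nfe2l1, induces subunit genes when the proteasome is impaired. Nfe2l1 had log2 values of 2.77, 2.81 and 2.77 among controls and 2.69, 2.60 and 2.72 in LKO, without overlap, and a log2 change of -0.11 ± 0.08 (SE). Nfe2l2, which encodes NRF2, had -0.13 ± 0.17, and Keap1, its repressor, -0.14 ± 0.08. Vcp, the ATPase that extracts tagged proteins, had -0.12 ± 0.08, and Zfand5, a stimulator of the proteasome, -0.20 ± 0.10. For 4 of the 8 genes of this list, Nfe2l1, Keap1, Vcp and Zfand5, the LKO mice lay below the controls without overlap (50%, against 9.21% of all genes tested). The list is small, and its share was not tested. With a slide column term the log2 changes of these 4 genes were -0.089, -0.11, -0.075 and -0.23, respectively. In all, 6 of 8 had lower values, and 0 passed over all genes (limma) or had an unadjusted p under 0.05. Of 6 genes of ubiquitin and its activating enzymes, 3 had higher and 3 lower values, with Ubb at 0.11 ± 0.13 (log2 change, SE).

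Genes that act with the immune subunits were set beside them. Of 9 genes of peptide loading on MHC class I, 7 were higher in LKO (median log2 change 0.12), and 0 passed over all genes (limma) or had an unadjusted p under 0.05. Tap1, whose promoter window overlaps that of Psmb9, had log2 values of 1.46, 1.41 and 1.35 among controls and 1.18, 1.41 and 1.04 in LKO. As with Psmb9, LKO 2 lay in the control range and LKO 1 and LKO 3 below it, and the log2 change was -0.20 ± 0.11 (SE, limma adjusted p = 0.581). Tap2, the partner of Tap1 in the transporter, had a log2 change of 0.14 ± 0.08 and Pdia3, a chaperone of peptide loading, 0.31 ± 0.17 (SE). The highest Pdia3 value was that of LKO 2, without which the change was 0.12, and with a slide column term it was 0.11.

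Of 9 tested regulators of the immune subunits, 7 had higher values and 0 passed over all genes (limma), with 2, Tnf and Ifngr2, at an unadjusted p under 0.05. Tnf, a cytokine gene, was 1.89-fold higher (log2 change 0.92 ± 0.20, SE, limma adjusted p = 0.223), and Ifngr2, a chain of the interferon gamma receptor, 1.23-fold higher (0.30 ± 0.11). Jak1, its kinase, had 0.18 ± 0.08. With a slide column term Ifngr2 had 0.17 and Jak1 0.077. Irf1, a transcription factor gene, had log2 values of 2.74, 3.24 and 3.04 among controls and 2.69, 3.80 and 3.73 in LKO (change 0.40 ± 0.31, SE), with LKO 1 below and LKO 2 and LKO 3 above the controls. In the fit with a slide column term, Irf1 had a log2 change of -0.32. Ifng itself was well above background on 3 of 6 arrays and was not tested.

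Immune cells also carry the immune subunits, and in bulk liver fewer cells of a type and less RNA per cell cannot be told apart. Each of 11 markers of Kupffer cells and macrophages was higher (49.2% of all genes tested were lower), as in Marco (1.25 ± 0.41) and Cd68 (0.35 ± 0.16, log2 changes, SE). Control 3 had the lowest value of the 6 mice for each of the 11 but Csf1r. Only Marco (9.09%) had an unadjusted p under 0.05 and groups that did not overlap, against 11.2% and 17.3% of all genes tested. The summed signal of the 11, in multiples of the array's 75th percentile, was 97.9 to 135 among controls and 121 to 146 in LKO. Of 5 tested neutrophil markers 3, S100a8 (2.43 ± 0.61), S100a9 (2.21 ± 0.59) and Retnlg (1.23 ± 0.33), had an unadjusted p under 0.05 and groups that did not overlap (60%, against 11.2% and 17.3% of all genes tested). The others, Elane and Csf3r, had -0.19 ± 0.12 and -0.04 ± 0.10, with summed signals over the list of 67.6 to 78.6 and 72.8 to 85.6. Of 8 tested markers of T and natural killer cells 4 were higher, as in Cd3e (0.17 ± 0.10), and 4 lower, as in Cd3g (-0.64 ± 0.24), with sums of 60.4 to 84.4 and 66.2 to 79.0. Of 4 tested B and plasma cell markers 2 were higher, as in Cd79b (0.46 ± 0.32), and 2 lower, as in Jchain (-0.90 ± 0.26), with sums of 0.998 to 1.25 and 0.793 to 1.53. Of 7 tested dendritic cell markers 5 were lower, as in H2-Aa (-0.46 ± 0.22) and Cd74 (-0.32 ± 0.19), with sums of 150 to 154 and 148 to 158. Of 5 endothelial markers, Clec4g had 0.10 ± 0.10 (0.018 without LKO 2) and Pecam1 -0.77 ± 0.56 (-0.058 without control 1, which alone was high), with sums of 39.5 to 44.1 and 41.6 to 45.7. The hepatocyte markers Ttr and Ahsg had -0.16 ± 0.08 and 0.12 ± 0.08, with sums of 3067 to 3264 and 3156 to 3249. Cd8a, Cd79a, Mpo and Xcr1 were well above background on no array. Across the 6 mice, processed signals were 1290 to 1896 for Elane, 15735 to 20788 for Csf3r, 15777 to 23253 for Cd4 and 31485 to 36412 for Siglech. That of S100a8 was 62.9 to 133 among controls. Whether the bright probes report the cell types of their lists was not tested. With a slide column term Cd68 had 0.047, S100a8 1.17, Retnlg 0.62, Cd3g -0.33, Clec4g 0.019, Cd79b 0.90, Cd74 -0.20 and Ttr -0.10, and after normexp Jchain had -0.37. Some of the sums are set by 1 bright probe and do not show the other markers, since Csf3r made up 75.6% to 91.1% of the neutrophil sum, Cd4 89.9% to 92.3% of the sum for T and natural killer cells and Siglech 71.3% to 82.3% of the dendritic cell sum. None of these markers passed over all genes (limma), and the part of these cells in the values of Psmb8, Psmb9 and Psmb10 was not tested.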

How the data were processed

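Liver RNA of 3 control and 3 LKO mice was measured on 1-colour Agilent arrays, 1 mouse per array. The files come from Agilent Feature Extraction 11.5.1.1, per the submitters' processing notes. The deposited gProcessedSignal is, per the file headers, an intensity after background correction. The deposited foreground and background medians are raw intensities, and the deposited flags are other values set by the software. The authors' deposited value table is the processed intensity times 1 constant per array (2.08 to 2.48). Accessions were matched without versions to RefSeq (GRCm38.p6), which named 32994 of 56605 probes with 1 symbol, 0 with several and left 23611 unnamed. The array headers name an earlier build, so no gene coordinates from the RefSeq gene table are printed.

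The log2 values were scaled by subtracting each array's 75th percentile (265 to 298 units of processed signal). Control spots and the 64 to 111 outlier spots per array were left out. Spots of a probe were averaged, and the probe with the highest mean stood for a gene. A gene was tested if 1 group or both had it well above background on all 3 arrays (14171). Groups were compared with limma 3.58.1 in R 4.3.3 (lmFit, eBayes, two-sided, Benjamini-Hochberg over all genes tested, threshold 0.05), after tests on simulated data. Deviations of same-numbered mice from their group means had correlations of 0.045, -0.055 and -0.07 over genes. For mice with different numbers the correlations lay between -0.113 and 0.163. With 3 mice per group these values cannot show whether the numbers pair the mice, and the main fit has no pairing. Alternatives covered scaling, background correction, the authors' value table, the filter, the probe rule, the eBayes setting, the replicate block, the slide column and leaving out each mouse. The labels do not say whether mice shared a litter or a day.

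Named are the catalytic subunits, up to 3 genes per role by smallest p, every gene with an unadjusted p under 0.05, up to 3 per pathway list and 2 per marker list, and Nfe2l1, Nfe2l2, Tap1, Tap2, Pomp and Irf1. A few further genes of these lists are not reported here. Other genes named were chosen after their values were seen. The genes and lists were chosen with earlier results of these data known.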

Additional observations from a re-analysis of the deposited data

How the results depend on the processing

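No proteasome gene passed an adjusted p of 0.05 (limma) under any of 17 alternatives. One of these, within slide column 1, repeats the values of the fit with slide column and has 1 LKO mouse, so that even Elovl6 did not pass there. The medians of core and cap kept their sign under all 17, between -0.12 and -0.01 (core) and between -0.12 and -0.02 (cap). The filter settings, the eBayes setting and the replicate block could not move these medians and gave the values of the main fit, so they do not bear on the sign. Over all genes, the count past an adjusted p of 0.05 (2) was 1 with normexp, 1 without the filter on dim probes, 1 with the filter on all 6 arrays, 13 with trend and robust eBayes, 1 with slide column in the fit, 0 within slide column 1 and between 1 and 15 when 1 mouse was left out (15 without LKO 1, 4 without control 1). The slide column alternative within 1 column was chosen after seeing the data. The proteasome genes at an unadjusted p under 0.05 (3) numbered 7 with normexp, 0 with slide column in the fit, 0 within slide column 1 and between 1 and 3 without 1 mouse (1 without control 3 and 1 without LKO 3). Those without overlap (7) numbered 12 after quantile normalization (17.9% of all genes), 29 within slide column 1 with its single LKO mouse (49.8% of all genes), and between 9 and 14 without 1 mouse (25.3% to 32.2% of all genes), as smaller groups overlap less often over all genes too. The immune median was -0.012 with slide column in the fit and -0.012 within slide column 1. Whether the replicate numbers pair the mice is not known. With the replicate number as a block, 3 genes passed over all genes, 0 proteasome genes passed and 1 had an unadjusted p under 0.05.

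Some log2 changes turned their sign under single alternatives. Apart from median scaling and the authors' table, the cause was not tested. In the fit with a slide column term, and with equal values within slide column 1, this held for Psmb5 (-0.020), Psmb6 (-0.064), Psmb8 (-0.012), Psmc3 (-0.026), Psme1 (0.024), Psme2b (-0.11), Irf1 (-0.32), Psmg3 (-0.11), Ubb (-0.085) and Usp14 (0.0070). With median scaling, which moves nearly every gene by -0.054, it held for Psmb5 (-0.024), Psmb6 (-0.043), Psmc3 (-0.0061) and Psmg3 (-0.020). With normexp it held for Psme3ip1 (0.061) and Psmg3 (-0.034), after quantile normalization for Psme3ip1 (0.0038) and with the authors' value table, which moves nearly every gene by 0.014, for Psme1 (0.00082) and Psme3ip1 (0.013). When 1 mouse was left out, the lowest and highest values had opposite signs for Psma8 (-0.37 to 0.0087), Psmb4 (-0.076 to 0.019), Psmb5 (-0.015 to 0.098), Psmb6 (-0.051 to 0.075), Psmd4 (-0.11 to 0.024), Psmd9 (-0.097 to 0.021), Psme1 (-0.032 to 0.015), Psme3ip1 (-0.12 to 0.090), Nfe2l2 (-0.26 to 0.0055), Pomp (-0.079 to 0.017) and Psmg3 (-0.033 to 0.11). Signal over background did not limit the probes used for the 42 genes tested, though Psma8 was dim and its second probe was well above background on no array. Psmb11 could not be tested because of its signal over background.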
